A study of Mus musculus with 8 samples.

Results

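The genes described here are 10 genes of the endoplasmic reticulum (ER) stress response and its folding machinery, Xbp1, Atf4, Atf6, Ddit3, Hspa5, Hsp90b1, Pdia4, Ern1, Ern2 and Dnajb9. They were taken by symbol from the 23361 genes of the expression table, which lists each of them once. The libraries came from 5 cancers of the mouse gastric squamous-columnar junction (SCJ), where the squamous forestomach meets the glandular stomach, and from the SCJ of 3 control stomachs. The cancers carry the genotype label Trp53-/-Rb1-/- and arose after tamoxifen in mice with an Lgr5 eGFP-Ires-CreERT2 allele, floxed alleles of Trp53 (loxP/loxP) and Rb1 (loxP/loxP) and the Ai9 tdTomato reporter. The controls are labelled wild type and came from mice of paired age, so that the floxed alleles, the Cre and tdTomato alleles and the tamoxifen cannot be told apart from the cancer itself. Cre was driven from the Lgr5 locus, so the deletion of both tumour suppressors was limited by design to Lgr5+ cells and their progeny, and the tumours were cut out along their tdTomato signal. Each library is a piece of tissue with several cell types. Fewer cells of a type and less RNA per cell cannot be told apart in such samples.

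The ER folds, glycosylates and oxidises secreted and membrane proteins. When unfolded chains build up there, the sensors IRE1 (Ern1 and its epithelial relative Ern2), ATF6 and PERK start the unfolded protein response. IRE1 splices the Xbp1 mRNA into the form that encodes an active transcription factor, ATF6 is cut free from the membrane, and PERK lowers translation in general while that of Atf4 goes up. These factors raise chaperones such as Hspa5 (BiP), and long stress brings up Ddit3 (CHOP). In the stomach the response is known above all from chief cells and mucous cells, whose ER carries a heavy load of secreted protein.

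ATF6 and XBP1 are known to act with the CCAAT-binding factor NF-Y at the ER stress response element (ERSE), which reads CCAAT, 9 further bases and CCACG. RefSeq promoters of GRCm38.p6 were at hand for 8 of the 10 genes, all but Atf6 and Ern2, and cover 250 bases before to 50 after the start of transcription. Of these 8, Hsp90b1 held 2 matches and Hspa5 held 1. The bases before the start are printed for Hsp90b1 and Hspa5, which hold the element, and for Pdia4, which was higher in the cancers like Hsp90b1 and holds none. Each is written 5′ to 3′ on the strand of its gene, and the capitals mark the outer letters of each ERSE, with CGTGG and ATTGG where the match lies on the other strand.
Hsp90b1 (chr10:86705445-86705694, minus strand): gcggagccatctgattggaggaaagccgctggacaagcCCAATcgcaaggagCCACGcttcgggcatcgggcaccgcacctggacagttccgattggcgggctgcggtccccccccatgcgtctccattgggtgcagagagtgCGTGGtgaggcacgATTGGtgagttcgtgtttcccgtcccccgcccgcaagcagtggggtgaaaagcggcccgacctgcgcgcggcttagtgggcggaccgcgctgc
Hspa5 (chr2:34771840-34772089, plus strand): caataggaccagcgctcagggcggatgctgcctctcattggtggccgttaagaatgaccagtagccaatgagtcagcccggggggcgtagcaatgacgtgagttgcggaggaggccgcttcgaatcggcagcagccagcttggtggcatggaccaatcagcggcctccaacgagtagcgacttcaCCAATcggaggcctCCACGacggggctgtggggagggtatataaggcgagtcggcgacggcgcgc
Pdia4 (chr6:47813513-47813762, minus strand): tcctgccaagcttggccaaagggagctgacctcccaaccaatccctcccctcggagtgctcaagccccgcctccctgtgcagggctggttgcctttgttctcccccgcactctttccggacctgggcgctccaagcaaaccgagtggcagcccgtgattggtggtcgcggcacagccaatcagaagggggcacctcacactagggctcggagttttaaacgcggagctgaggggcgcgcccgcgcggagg
Counted from the start of transcription, the matches of Hsp90b1 ran from -212 to -194 on the strand of the gene and from -107 to -89 on the other, and that of Hspa5 from -65 to -47. The exact ERSE was present in 39 of 32851 RefSeq promoters (0.119%). The related ERSE-II (ATTGG, 1 base and CCACG; 0.0365% of promoters), the unfolded protein response element TGACGTGG (0.676%) and the ATF4 element (TGATG, 1 base and AA; 3.97%) were searched on both strands and were in none of the 8 promoters. A match is a description of letters, and its absence says only that these letters are not in this window. The search covered neither more distant sequence nor variants of the elements.

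Expression was given as FPKM, the fragments of a transcript per kilobase of its length and per mapped fragments of the library, rounded to whole numbers. FPKM accounts for length, so levels of different genes can be compared within a library, but it does not hold read numbers, and sequencing depth is unknown. The sum of FPKM was 403569 to 573858 in the cancers and 887141 to 992550 in the controls. The 10 most abundant genes took 11.1% to 19.6% of these sums in the cancers and 39.3% to 44.3% in the controls. How libraries are scaled therefore moves every fold change. Bringing all libraries to one sum (TPM) moved the median of all genes on the log2 scale from -0.04 to 0.81, and values relative to that shift are given below. Rb1 had FPKM of 4 to 6 in the cancers and 9 to 10 in the controls, and was lower by limma (log2 fold change -0.90, standard error (SE) 0.16, adjusted p = 0.0059), whereas Trp53 was not called (-0.08, SE 0.33, adjusted p = 0.87). With TPM Rb1 lay at -0.05 and Trp53 passed as higher (0.86, adjusted p = 0.020 from limma), beside the median shift of 0.81. Trp53 levels thus do not show the labelled deletion, and a value per gene does not separate deleted exons from the rest. Summed FPKM of 6 endocrine markers, among them Chga and Chgb, was 8015 to 17801 in the cancers and 125 to 188 in the controls, while that of 6 pit and neck mucous cell markers was 691 to 72677 against 146212 to 214340. Most of the mucous sum came from Tff1, Gkn1 and Gkn2 in every library. Of the 6 mucous markers 1 was called lower by limma. Muc6 (0 to 48 against 20 to 43) and Tff2 (2 to 7031 against 2223 to 3714) overlapped between the groups.

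Of the 10 genes, Hsp90b1 and Pdia4 were higher in the cancers, none was called lower, and Ern2 was below the controls in every cancer without passing the test. The test was limma on log2(FPKM + 1) over the 14357 genes that reached an FPKM of 1 in 3 or more libraries, with Benjamini-Hochberg adjustment over all of them and a threshold of 0.05. All 10 genes passed this filter. At an unadjusted p under 0.05 from limma, 2 were higher and 1, Ern2, was lower. Among all genes tested, 16.2% were called higher and 18.3% lower, so 2 of 10 is near the background. The median log2 fold change of the 10 genes was 0.45, beside -0.04 for all genes tested. The 3 controls are 3 stomachs, whereas it is not stated whether the 5 tumours came from separate mice, and p-values measure only the spread between these samples.

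**Figure D1:**
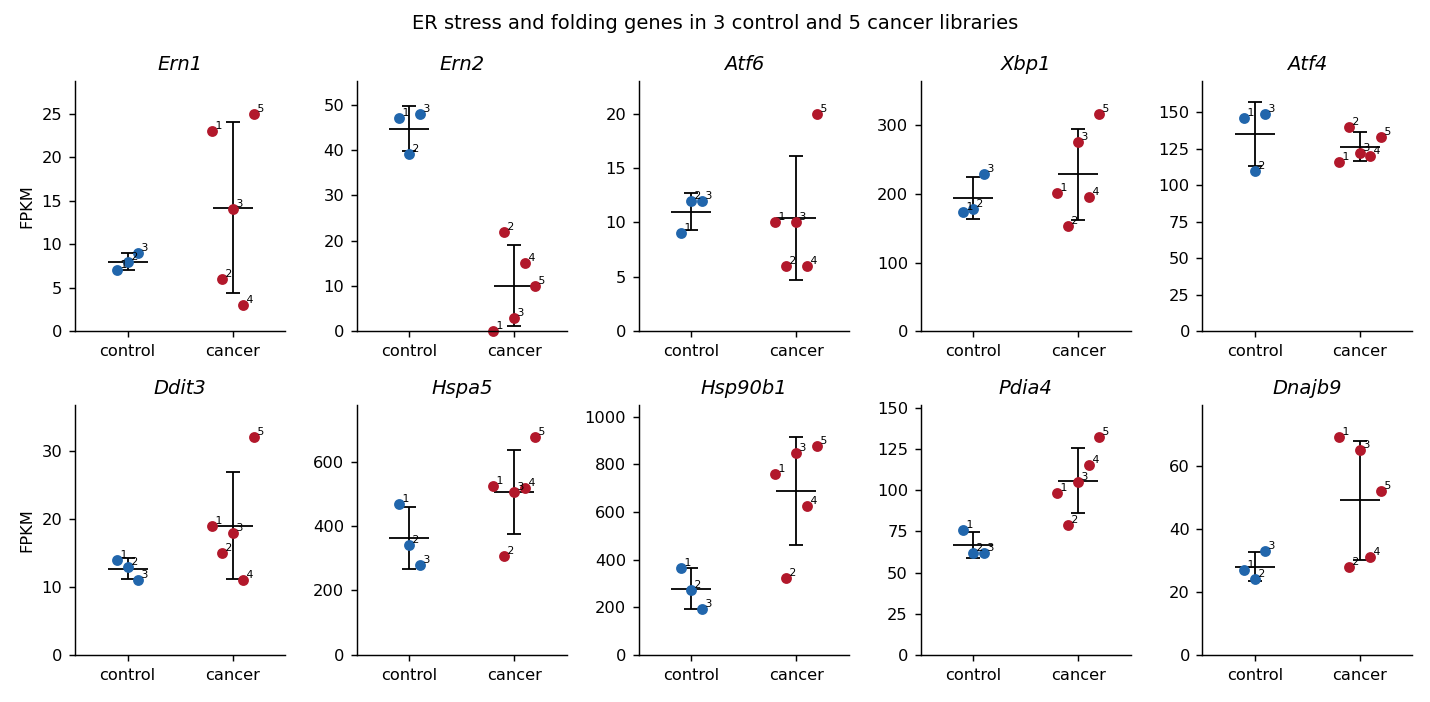
FPKM (linear axis from 0) of the 10 genes in the 3 control (blue) and 5 cancer (red) libraries, numbered by replicate, with the mean and SD of each group in black. Pdia4 is above the controls in every cancer, Hsp90b1 in 4 of 5, and Ern2 is below them in all 5, while the other genes overlap.

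Among the sensors, Ern1 (chromosome 11, 106397620 to 106487796, mm10 here and below) encodes IRE1 alpha, the kinase and RNase found in most cells. Its FPKM was 23, 6, 14, 3 and 25 in cancers 1 to 5 and 7, 8 and 9 in controls 1 to 3. The cancers split around the controls, with 3 above all of them and 2 below. The log2 fold change of 0.44 (SE 0.62, adjusted p = 0.60 from limma) was within this spread, which covered 8.33-fold between the highest and the lowest cancer. Leaving out single libraries moved it from 0.16 to 0.84.

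Ern2 (chromosome 7, 122169893 to 122186216) encodes IRE1 beta, the form of IRE1 known from mucus-secreting epithelium of the gut and airways. It was listed at 0, 22, 3, 15 and 10 in cancers 1 to 5 and at 47, 39 and 48 in the controls. Every cancer lay below every control, as was the case for 19.8% of all genes tested, and the mean of the controls was 4.47 times that of the cancers. The log2 fold change was -2.71 (SE 0.96) and missed the threshold (adjusted p = 0.061 from limma). The exact permutation test (two-sided, 56 splits into 5 and 3), which can reach 0.018 at the smallest, gave an unadjusted p of 0.054, 1 of 10 such tests. Without cancer 1, where Ern2 was listed at 0, Ern2 passed the threshold with a smaller change (-2.01, adjusted p = 0.040 from limma). It also passed without cancer 2, which had the highest Ern2 of the cancers (-3.14, adjusted p = 0.041 from limma). Leaving out any other library gave adjusted p from limma between 0.061 and 0.15, a pseudocount of 0.1 gave 0.15 (log2 fold change -3.47) and TPM gave 0.13. Within its library, Ern2 ranked above 84.9% to 86.8% of the genes tested in the controls and above 4.38% to 78.1% in the cancers.

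Atf6 (chromosome 1, 170704457 to 170867771) encodes the membrane-bound factor that is cut in the Golgi under stress. Its FPKM was 10, 6, 10, 6 and 20 in the cancers, against 9, 12 and 12 in the controls. Cancer 5 was above every control, cancers 2 and 4 were below them, and cancers 1 and 3 lay within their range. No difference passed the test (log2 fold change -0.19, SE 0.36, adjusted p = 0.70 from limma), and the sign turned with TPM (0.72, or -0.09 relative to the median of all genes).

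Xbp1 (chromosome 11, 5520641 to 5525993), the target of IRE1 splicing, was the most abundant transcription factor of the group. It had FPKM of 202, 153, 275, 196 and 317 in the cancers, against 174, 178 and 229 in the controls. Cancers 3 and 5 exceeded every control and cancer 2 was below them all. The change was 0.20 on the log2 scale (SE 0.26, adjusted p = 0.56 from limma). Without cancer 5 it was 0.072, and without cancer 2 it was 0.33. A value per gene does not separate spliced from unspliced Xbp1, and likewise does not show cleavage of ATF6 or translation of Atf4.

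Atf4 (chromosome 15, 80255184 to 80257541) encodes the factor at the end of the PERK branch and varied least among the cancers. Its FPKM was 116, 140, 122, 120 and 133 in the cancers, against 146, 110 and 149 in the controls. All 5 cancers fell within the range of the controls. The log2 fold change of -0.09 (SE 0.15, adjusted p = 0.66 from limma) turned to 0.89 with TPM, which is 0.08 relative to the median of all genes, and to 0.42 with quantile normalization.

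Ddit3 (chromosome 10, 127290793 to 127311786) encodes CHOP, a factor tied to cell death under lasting stress. It had FPKM of 19, 15, 18, 11 and 32 in the cancers, against 14, 13 and 11 in the controls. Only cancer 4, equal to the lowest control, was not above all controls. With 0.47 on the log2 scale (SE 0.30, adjusted p = 0.24 from limma) the difference did not pass. It was 0.27 without cancer 5 and 0.64 without cancer 4. The locus in the table spans 20994 bases, against 5515 for the Ddit3 entry of GENCODE M21 used here. The exons of that entry overlap those of Mars and Gm4189 on the other strand. They also share 105 bases with another protein-coding entry named Ddit3 on the same strand. The labels name a directional library kit and the study's methods another system (TruSeq), and whether the counting used strand is not stated, so reads of the overlapping strands may not have been told apart.

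Hspa5 (chromosome 2, 34772090 to 34776529) encodes BiP, the main HSP70 chaperone of the ER lumen, which also binds the stress sensors. Its FPKM was 523, 307, 506, 517 and 675 in the cancers, against 468, 342 and 278 in the controls. Cancer 2 lay among the controls and the other 4 cancers lay above them. With a log2 fold change of 0.47 (SE 0.29, adjusted p = 0.23 from limma) the difference did not pass the test.

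Hsp90b1 (chromosome 10, 86690841 to 86705444) encodes GRP94, the HSP90 chaperone of the ER, which folds integrins and Toll-like receptors. It had FPKM of 759, 321, 849, 625 and 877 in cancers 1 to 5 and 366, 272 and 194 in controls 1 to 3. Cancer 2 lay between controls 2 and 1, and the other cancers were above all controls. The mean of 686 ± 227 (SD, n = 5) was 2.47 times the control mean of 277 ± 86.1 (SD, n = 3), and the log2 fold change was 1.27 (SE 0.38, adjusted p = 0.037 from limma). The exact permutation test gave an unadjusted p of 0.054. Without cancer 2 Hsp90b1 stayed past the threshold, but without any other single library it did not, with adjusted p from limma between 0.057 and 0.13 and log2 fold changes of 1.03 to 1.49. In GENCODE M21 its exons share 415 bases with the pseudogene 1810014B01Rik on the other strand. On the same strand they share 84 with Gm15344 and 133 with Gm25745.

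Pdia4 (chromosome 6, 47796141 to 47813512) encodes ERp72, a disulfide isomerase. Its FPKM was 98, 79, 105, 115 and 132 in the cancers, against 76, 62 and 62 in the controls. Every cancer exceeded every control, which held for 14.4% of all genes tested. The mean of 106 ± 19.7 (SD, n = 5) was 1.59 times the control mean of 66.7 ± 8.08 (SD, n = 3), with a log2 fold change of 0.64 (SE 0.18, adjusted p = 0.031 from limma) and an unadjusted p of 0.036 from the exact permutation test. The call was lost without cancer 3 (adjusted p = 0.064 from limma) and without control 1, 2 or 3 (0.057, 0.11 and 0.10 from limma).

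Dnajb9 (chromosome 12, 44205897 to 44210068) encodes ERdj4, a co-chaperone of BiP and a known target of spliced XBP1. It had FPKM of 69, 28, 65, 31 and 52 in the cancers, against 27, 24 and 33 in the controls. Cancers 1, 3 and 5 exceeded all controls, whereas cancers 2 and 4 lay within their range. The log2 fold change was 0.71 (SE 0.33, adjusted p = 0.13 from limma).

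With TPM, 7 of the 10 genes were called higher (Xbp1, Atf4, Ddit3, Hspa5, Hsp90b1, Pdia4 and Dnajb9) and 0 lower, but so were 50.0% of all genes, with 3.68% lower. The place of a gene among all genes depended on the scaling to different extents. The log2 fold change of Hsp90b1 exceeded that of 89.8% of genes with FPKM, 91.3% with TPM and 95.6% with quantile normalization. For Pdia4 these shares were 77.0%, 81.4% and 90.2%. Quantile normalization moved Xbp1 from 61.6% to 82.8% and Atf4 from 47.3% to 72.5%. Ern2 stayed near the low end, above 1.92%, 1.96% and 2.19% of genes, and relative to the median of all genes it differed by -2.67 with FPKM and -2.88 with TPM.

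**Figure D2:**
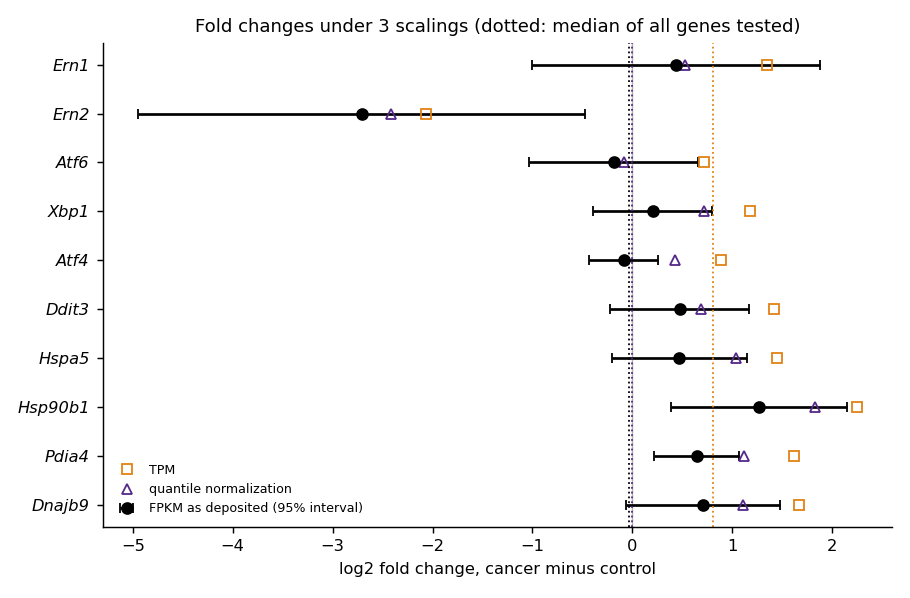
Log2 fold change, cancer minus control, of the 10 genes with FPKM as deposited (black, 95% interval from limma), TPM (orange squares) and quantile normalization (purple triangles), and the median of all genes tested under each as a dotted line. TPM moves the genes and the median (0.81) to the right together, Hsp90b1 stays farthest to the right and Ern2 farthest to the left.

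The levels kept much of their order. In the controls the order by median FPKM was Hspa5 (342), Hsp90b1 (272), Xbp1 (178), Atf4 (146), Pdia4 (62), Ern2 (47), Dnajb9 (27), Ddit3 (13), Atf6 (12) and Ern1 (8). Hsp90b1 exceeded Xbp1 in only 2 of 3 controls, and Ddit3 exceeded Atf6 in only 2 of 3, so these neighbours were not separated. In the cancers Hsp90b1 (759) came before Hspa5 (517) in 5 of 5 libraries, and Ern2 and Atf6 (both 10) came last. Ddit3, Ern1, Atf6 and Ern2 were not separated there, each exceeding the next in 3 or 4 of 5 cancers.

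A ratio of 2 abundant genes within a library hardly depends on how libraries are scaled, and 7 such ratios of FPKM + 1 were compared between the groups. For genes with low FPKM the added 1 still weighs on the ratio. Hsp90b1 to Hspa5 was 1.45, 1.05, 1.68, 1.21 and 1.30 in cancers 1 to 5 and 0.783, 0.796 and 0.699 in controls 1 to 3. GRP94 mRNA thus exceeded BiP mRNA in every cancer and was below it in every control. The difference of 0.80 on the log2 scale, or 1.74-fold, had an unadjusted p of 0.018 in the two-sided exact permutation test, the smallest that 56 splits allow, and 0.125 after Benjamini-Hochberg adjustment over the 7 ratios, which does not pass. Leaving out single libraries gave differences of 0.71 to 0.88. Without cancer 4 the unadjusted p was 0.057 in the exact test, where 0.029 is the smallest possible.

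Ern2 to Ern1, the epithelial against the general form of IRE1, was 0.042, 3.29, 0.267, 4 and 0.423 in the cancers, against 6, 4.44 and 4.90 in the controls. All cancers were below all controls, cancers 2 and 4 nearest to them. The log2 difference was -3.15, with an unadjusted exact permutation p of 0.054 and 0.19 after adjustment over the 7 ratios. Cancer 1, with Ern2 at 0, takes its value from the added 1. Without it the difference was -2.20 (exact permutation p = 0.17), and with 0.1 added in place of 1 it was -3.91 (exact permutation p = 0.16, 0.375 after adjustment). The other 5 ratios overlapped between the groups, Pdia4, Dnajb9 and Xbp1 to Hspa5, Ddit3 to Atf4 and Atf4 to Xbp1, with log2 differences between -0.29 and 0.56 and adjusted exact permutation p between 0.38 and 0.48.

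**Figure D3:**
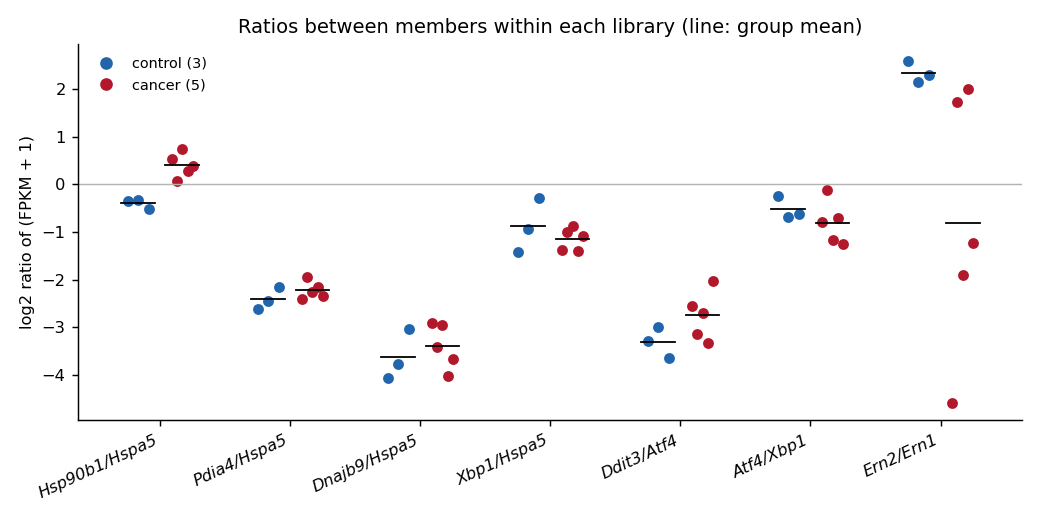
Log2 ratio of FPKM + 1 for 7 pairs of genes within each of the 3 control (blue) and 5 cancer (red) libraries, with group means as lines. Hsp90b1 to Hspa5 lies above 0 in every cancer and below 0 in every control, Ern2 to Ern1 is lower in every cancer, and the other 5 pairs overlap.

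The cancers differed among themselves. Cancer 5 was highest of the cancers for 7 of the 10 genes, Xbp1, Atf6, Ddit3, Hspa5, Hsp90b1, Pdia4 and Ern1, and cancer 2 was lowest for 6, ties included. The shares of all genes tested with these extremes were not counted, so they may not be particular to these genes. The set also depends on the scaling. With TPM Ern1 was highest in cancer 1 (57.0, against 56.1 in cancer 5) and Atf4 in cancer 5 (298). Cancer 5 also had the highest summed FPKM of 6 hepatocyte markers, 470, where the other cancers had 3 to 59 and the controls 14 to 20, and the part of this in its levels was not tested. Cancer 2 had the highest mucous marker sum of the cancers, 72677, and the lowest endocrine marker sum, 8015. Its sum of 5 smooth muscle markers was 1230, where the other cancers had 23 to 386 and the controls 239 to 401, and the part of these in its levels was not tested. Without cancer 5 Pdia4 was still called higher and Hsp90b1 was not, at a log2 fold change of 1.16 (adjusted p = 0.071 from limma).

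Ern2 ran in the same order as the mucous cell markers across the cancers. Ordered by the summed FPKM of Muc5ac, Tff1, Gkn1, Gkn2, Muc6 and Tff2, cancers 1, 3, 5, 4 and 2 (691, 5226, 15908, 46224 and 72677) had Ern2 at 0, 3, 10, 15 and 22. Dnajb9 ran in the reverse order, with 69, 65, 52, 31 and 28. Both were picked after their values were seen. The order of Ern2 was shared by 3.24% of all genes tested and that of Dnajb9 by 0.766%, over 5 libraries, and the points share the scaling of their library. Per 1000 FPKM of mucous markers, Ern2 was 0, 0.303, 0.574, 0.325 and 0.629 in cancers 1 to 5 and 0.229, 0.267 and 0.224 in the controls. On that scale cancers 2 to 5 were above every control and cancer 1, with Ern2 listed at 0, was below. Whether the mucous cell share set the level of Ern2 was not tested.

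**Figure D4:**
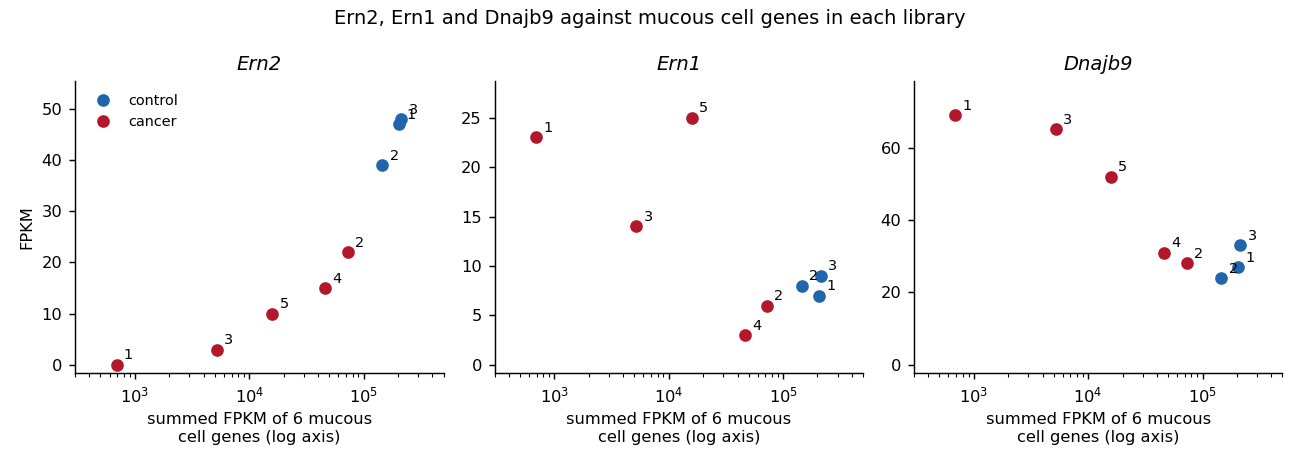
FPKM of Ern2, Ern1 and Dnajb9 (linear axes) against the summed FPKM of 6 mucous cell genes (log axis) in the 5 cancer (red) and 3 control (blue) libraries, numbered by replicate. Ern2 rises from 0 in cancer 1 to 22 in cancer 2 along the mucous sum, with the controls at 39 to 48 at its upper end, Dnajb9 falls from 69 to 28 over the same cancers, and Ern1 follows neither order.

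The other genes that load, fold, export and clear secreted protein were described from 10 lists. Each count is read against the 16.2% of genes called higher and 18.3% called lower, and against TPM, where a call in the lower direction is rare. Over all genes, TPM called 50.0% higher and 3.68% lower. Quantile normalization called 1891 higher and 1902 lower, beside 2326 and 2622 with FPKM. The calls over all genes also fell to 1369 higher and 1121 lower without control 1. They were 1442 and 1201 without control 2, and 1520 and 1295 without control 3. Markers of several cell types moved with the same groups, and their part in these counts was not tested. Beside the endocrine and mucous sums above, summed FPKM in the cancers and controls was 2 to 3385 and 4598 to 7247 for 8 squamous markers, 0 to 2633 and 6652 to 12468 for 5 parietal markers, and 811 to 4943 and 6079 to 8497 for 6 glandular epithelium markers, with no overlap. Of the last list, Epcam went the other way, at 314 to 592 in the cancers and 159 to 183 in the controls. Of the 8 squamous markers, 2 were called lower and 0 higher by limma. In cancer 4, Krt5 (574), Krt14 (403) and Krt6a (65) exceeded every control, at 128 to 203, 100 to 143 and 7 to 31. Summed FPKM of 6 macrophage markers was 116 to 384 in the cancers and 39 to 68 in the controls. That of 8 plasma cell markers was 76 to 139 against 153 to 187, with Sdc1, which epithelium also expresses, at 35 to 128 and 131 to 159 of these, and Tnfrsf17 was at 0 in all 8 libraries. Without Sdc1 the sum was 64, 11, 41, 38 and 7 in cancers 1 to 5 and 16, 22 and 28 in controls 1 to 3, and the groups overlapped.

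ER chaperones and disulfide isomerases beyond the members had 12 of 30 tested called higher (40%) and 2 lower, and a median log2 fold change of 0.37. Prdx4, the peroxiredoxin of the ER, had FPKM of 518, 239, 597, 261 and 592 in the cancers, against 64, 62 and 72 in the controls (log2 fold change 2.62, SE 0.36, adjusted p = 0.0028 from limma). Fkbp11, a prolyl isomerase of the secretory pathway, was at 82 to 143 against 26 to 34 (1.71, SE 0.22, adjusted p = 0.0023 from limma). Neither gene overlapped between the groups, and the other genes called higher were Pdia3, Pdia5, Pdia6, Sil1, Sdf2l1, Creld2, Manf, Fkbp7, Fkbp14 and Cnpy3. Ero1l, the oxidase that recharges disulfide isomerases, fell by 1.83 on the log2 scale (SE 0.34, adjusted p = 0.0074 from limma), from 72 to 132 in the controls to 19 to 49 in the cancers, and was not called with TPM (-0.89, adjusted p = 0.064 from limma). Erp44, which retains ER oxidases, fell by 0.73 (adjusted p = 0.034 from limma) but lay at 0.23 with TPM. With TPM 0 genes of the list were called lower. The count of genes called higher was 26 with TPM and 16 with quantile normalization, and 4 without control 2 and 6 without control 3. Relative to the median of all genes the list was at 0.41 with FPKM, 0.53 with TPM and 0.84 with quantile normalization.

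ER-associated degradation, which returns misfolded proteins to the proteasome, had 0 of 23 called higher and 8 lower by limma (34.8%), with a median of -0.30, and 1 higher and 8 lower at an unadjusted p under 0.05. At an FPKM of 8, 11, 6, 12 and 14 in the cancers, against 26, 27 and 31 in the controls, Edem1, a lectin that picks out misfolded glycoproteins, fell by 1.42 on the log2 scale (SE 0.25, adjusted p = 0.0063 from limma). Derl3, a Derlin of secretory cells that is also among the plasma cell markers, fell by 1.59 (SE 0.37, adjusted p = 0.016 from limma), from 6 to 12 in the controls to 1 to 4. Both also lay below 0 with TPM, at -0.52 and -0.90. Edem3, Sel1l, Sel1l3, Herpud1, Vcp and Ube2g2 were the others called lower. The counts of the list moved with the scaling. TPM gave 11 higher and 0 lower, where 50.0% of all genes were higher and 3.68% lower. Quantile normalization gave 1 higher and 2 lower. Without any 1 control the count called lower was 5, while that over all genes fell from 2622 to between 1121 and 1295. Without cancer 2, 8 genes of the list were lower and 3 higher. Relative to the median of all genes the list was at -0.26 with FPKM, -0.17 with TPM and 0.02 with quantile normalization.

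N-glycosylation genes, which attach and trim the sugar tree of secreted proteins, had 7 of 23 called higher (30.4%) and 2 lower. Ddost, a subunit of the oligosaccharyltransferase, had FPKM of 218 to 346 in the cancers and 88 to 104 in the controls (log2 fold change 1.53, SE 0.21, adjusted p = 0.0027 from limma). Uggt2, a sensor of glycoprotein folding, was listed at 4, 1, 4, 1 and 3 in the cancers and at 0 in all controls, and was called higher. Uggt2 reached the filter through the cancers alone and spans few steps of the rounding, so its place among the 7 carries little weight. Magt1 and Stt3b, further oligosaccharyltransferase subunits, fell by 0.67 and 0.52 (adjusted p = 0.018 and 0.037 from limma) but were at 0.28 and 0.44 with TPM. TPM gave 20 higher and 0 lower. Without control 1, 2 or 3 the count of genes called higher was 4, 3 or 4, and without cancer 3 it was 4.

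Genes of translocation into the ER and signal peptide removal had 4 of 25 called higher (16.0%) and 0 lower by limma, near the background, and 5 higher and 2 lower at an unadjusted p under 0.05. With TPM 21 were higher and 0 lower, and with quantile normalization 8 and 0, so the count is near the background only with FPKM as deposited among these scalings. With FPKM the 4 became 2 without cancer 1, cancer 3, control 1 or control 3 and 1 without control 2. Ssr4, a subunit of the translocon-associated complex, was at 488 to 657 in the cancers and 304 to 449 in the controls (log2 fold change 0.67, SE 0.20, adjusted p = 0.035 from limma). Sec61a2, an alternative channel subunit, was at 5 to 7 against 3 in every control (0.75, SE 0.16, adjusted p = 0.012 from limma). These small FPKM carry few steps after rounding.

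COPII export and retrieval, the vesicle traffic between ER and Golgi, had 2 of 29 called higher and 8 lower (27.6%). Kdelr3, a receptor that returns KDEL proteins such as BiP and GRP94, had FPKM of 68, 29, 65, 13 and 24 in the cancers, against 6, 7 and 10 in the controls (log2 fold change 2.01, SE 0.54, adjusted p = 0.025 from limma). Tmed10, a cargo receptor, was at 115 to 165 against 91 to 101 (0.55, SE 0.15, adjusted p = 0.025 from limma). Mia2, which loads bulky cargo, fell by 1.83 (SE 0.33, adjusted p = 0.0062 from limma), and Sec16b, of the exit site scaffold, fell by 0.88 (SE 0.21, adjusted p = 0.018 from limma). Both stayed below 0 with TPM, Sec16b at -0.09, but the list had 18 higher and 0 lower there, and 6 higher and 2 lower with quantile normalization. Without control 1, 2 or 3 the list had 0 called higher and 2 lower. It had 4 higher and 5 lower without cancer 2, and 0 and 5 without cancer 3.

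**Figure D5:**
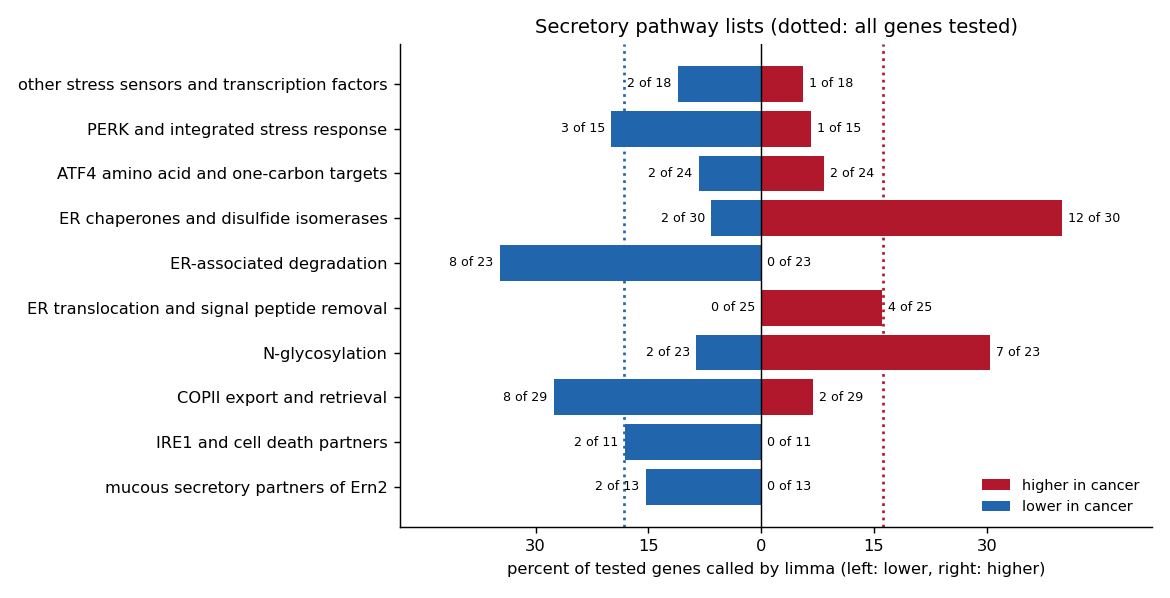
Percent of the tested genes of 10 secretory pathway lists called lower (blue, left) and higher (red, right) in the cancers by limma with FPKM, with the counts beside the bars and the shares among all genes tested as dotted lines. ER chaperones (12 of 30) and N-glycosylation (7 of 23) extend farthest beyond the dotted line on the right, and ER-associated degradation (8 of 23) on the left. With TPM the last had 0 of 23 lower, where 3.68% of all genes were lower.

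Of 18 other stress sensors and transcription factors, 1 was higher and 2 lower. Creb3l1, an ER-bound factor of secretory cells, had FPKM of 258, 82, 338, 105 and 94 in the cancers, against 34, 36 and 50 in the controls (log2 fold change 1.88, SE 0.51, adjusted p = 0.026 from limma). Nfe2l2, the oxidative stress factor NRF2, was at 19 to 109 against 271 to 323 and fell by 2.42 on the log2 scale (SE 0.54, adjusted p = 0.014 from limma). Bhlha15 (MIST1), which shapes secretory cells and is among the chief cell markers, fell by 1.55 (SE 0.50, adjusted p = 0.046 from limma). All 3 kept their direction with TPM, but Bhlha15 was no longer called (-0.72, adjusted p = 0.32 from limma). The list had 11 higher and 1 lower with TPM and 3 higher and 1 lower with quantile normalization. Without control 1, 2 or 3 it had 0 called higher and 1 lower. The counts were 3 higher and 1 lower without cancer 4, and 2 and 3 without cancer 5. PERK itself (Eif2ak3) had FPKM of 9 to 17 in the cancers and 15 to 21 in the controls and was not called (-0.42, SE 0.24, adjusted p = 0.19 from limma).

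The PERK and integrated stress response list, which shares Eif2ak3 and Atf3 with the list before, had 1 of 15 higher and 3 lower. Ppp1r15b, the constitutive subunit that brings phosphatase to eIF2 alpha, was at 18 to 28 in the cancers and 38 to 58 in the controls (log2 fold change -1.12, SE 0.20, adjusted p = 0.0058 from limma). Eif2ak2 (PKR) was at 5 to 9 against 9 to 38 (-1.35, SE 0.42, adjusted p = 0.040 from limma), and the haem-regulated kinase Eif2ak1 was also lower. Bbc3 (PUMA), a death gene, was called higher at 2 to 3 against 1 to 2, a step or so of the rounding. The other 11 were not called, with log2 fold changes from -2.30 for Nupr1 (SE 0.81, adjusted p = 0.061 from limma) and -1.63 for Atf3 (SE 0.58, adjusted p = 0.062 from limma) to 0.62 for Ddit4 (SE 0.70, adjusted p = 0.51 from limma). With TPM this list had 3 higher and 0 lower. Bbc3 was no longer called, and the count called higher was 0, without cancer 1, 3 or 5 or without control 1 or 2, while the count called lower ran from 2 to 4 over the libraries left out.

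Amino acid and one-carbon genes that ATF4 is known to raise had 2 of 24 called higher and 2 lower, with a median of -0.34. Leaving out single libraries gave 1 to 4 higher, with 4 without cancer 4 and 1 without control 1, and 0 to 5 lower, with 5 without cancer 5 and 0 without control 2 or 3. Cbs, of the transsulfuration pathway, was at 5 to 46 in the cancers and 1 to 3 in the controls (log2 fold change 2.69, SE 0.61, adjusted p = 0.015 from limma), and Mthfd1l, of mitochondrial folate metabolism, at 6 to 17 against 2 to 3 (1.81, SE 0.31, adjusted p = 0.0055 from limma). Gpt2, an alanine aminotransferase, fell by 2.37 (SE 0.61, adjusted p = 0.022 from limma). Slc3a2, the heavy chain of amino acid transporters, fell by 0.59 (SE 0.16, adjusted p = 0.029 from limma) but was at 0.37 with TPM, where the list had 11 higher and 1 lower.

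Among 11 partners of IRE1 and of ER stress death, 0 were called higher and 2 lower by limma, and 1 higher and 3 lower at an unadjusted p under 0.05. Tmbim6 (Bax inhibitor 1), an ER membrane protein known to restrain IRE1, had FPKM of 206 to 362 in the cancers and 458 to 591 in the controls (log2 fold change -1.01, SE 0.22, adjusted p = 0.014 from limma), and was at -0.03 with TPM. Bak1, a pore-forming death protein, was at 9 to 26 against 29 to 55 (-1.43, SE 0.35, adjusted p = 0.018 from limma). TPM gave 7 higher and 0 lower in this list, and the count called lower was 1 without control 1 and 0 without control 3.

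Of 13 mucous secretory genes set beside Ern2, 0 were called higher and 2 lower by limma, with a median of -1.86, and 0 higher and 5 lower at an unadjusted p under 0.05. Foxa3, a factor of mucous and other secretory epithelium, was at 15 to 35 in the cancers and 52 to 87 in the controls (log2 fold change -1.67, SE 0.29, adjusted p = 0.0059 from limma). Gkn1 (gastrokine 1), a product of pit cells, was at 491 to 12040 against 33163 to 41821 (-3.81, SE 1.11, adjusted p = 0.034 from limma). Agr2, a disulfide isomerase needed for mucin folding, had FPKM of 8, 984, 128, 777 and 291 in the cancers, against 947, 627 and 571 in the controls. Agr2 was lowest in cancer 1 and highest in cancer 2, as Ern2 was, and it was not called (-1.86, SE 1.44, adjusted p = 0.33 from limma). With TPM the counts were again 0 and 2. The count called lower was 5 without cancer 1, 4 without cancer 2, 1 without cancer 3, cancer 5 or any 1 control, and 8 with array weights. Relative to the median of all genes the list was at -1.83 with FPKM and -1.93 with TPM.

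The ERSE printed above was also looked up across the genome. The 39 promoters with an exact match belong to 37 genes, of which 30 are in the table and 17 were tested. Hsp90b1, Pdia6, Creld2 and Hnrnpa3 were called higher and Derl3, Acacb and Spats2l lower, and 10 were not called, Hspa5 among them. These 4 higher and 3 lower of 17 lie near the 16.2% and 18.3% of all genes tested. The median log2 fold change of the 17 was 0.28, beside -0.04 for all genes. Hsp90b1 and Hspa5, both with the element, differed by 0.80 in their log2 fold change, and Pdia4, with no match, lay between them at 0.64.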

How the data were processed

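RNA-seq of 5 SCJ cancers and 3 control SCJ samples was used, grouped by the sample titles. Per the labels, the authors isolated polyA+ RNA and made directional libraries, whereas the study's methods name TruSeq. Reads were trimmed with cutadapt 1.8, aligned with TopHat2 2.0.13 and normalized with Cuffnorm 2.2.1 according to the submitters' processing notes, on mm10 genes quantified with cuffquant. The Cuffnorm scaling option is not given in the sources used here. The deposited score is FPKM rounded to whole numbers, so a low value carries few steps, and depth is unknown. Starts in the table are counted from 0 and are printed from 1.

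The 14357 genes that reached an FPKM of 1 in 3 or more libraries were fitted on log2(FPKM + 1), pseudocount 1. The fit used lmFit and eBayes (trend on) of limma 3.58.1 under R 4.3.3, and p-values were adjusted by Benjamini-Hochberg. Fold changes of low genes are understated on this scale. Ratios and single genes were compared by two-sided exact permutation tests over 56 splits in Python 3.11.15. TPM rescaled each library to the same FPKM sum. The limma script was tested on simulated data. Alternatives were a pseudocount of 0.1, no filter, a mean FPKM of at least 5, quantile normalization, TPM, a replicate block, array weights, eBayes with no trend and leaving out each library. The members, the lists and the ratios were chosen with earlier results of these data known. Named genes are all members, up to 2 of each list with the largest rise and 2 with the largest fall among those called, and Trp53 and Rb1. Other genes were named after their values were seen. Of the list entries, Slc7a3, Cdnf, Sec31b, Agr3 and Clca1 were below the filter and Rtcb had no row under this name. Exon overlaps came from GENCODE M21 and promoters from RefSeq GRCm38.p6.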

Additional observations from a re-analysis of the deposited data

Results flagged for a closer look

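Atf6 in cancer 5 stood apart from the other cancers. Its FPKM of 20 was followed by 10, and the gap of 10 was 0.714 of the range from 6 to 20, just above the critical gap of Dixon's test for 5 values, 0.71. The groups examined were the cancers' values of 10 genes and 7 ratios, 17 in all, of which 1 was flagged where chance gives about 0.85. Groups of 3 were not examined. Cancer 5 also had the highest summed FPKM of hepatocyte markers, 470, and their part in this value was not tested.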

How the results depend on the processing

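Of the 10 members, 2 were called higher and 0 lower with FPKM as deposited, and 4948 genes in all changed. TPM gave 7 members higher and 7704 genes, array weights 1 lower (Ern2) and 8148 genes, and a mean FPKM of at least 5 gave 1 lower (Ern2). The replicate block gave 0 members higher and 1534 genes. Same-numbered libraries did not deviate together (correlations of -0.02, -0.19 and -0.10). With 3 such pairs this cannot exclude a pairing, and the titles give only a number. Leaving out single libraries gave 0 to 2 members higher, 0 to 1 lower and 2490 to 5252 genes, with 0 members called by limma without cancer 3 or any control. Atf4 reversed with TPM (0.89), quantile normalization (0.42) and array weights (0.048), and Atf6 with TPM (0.72). The log2 difference of Xbp1 to Hspa5 ran from -0.54 to 0.035 and turned without control 3. The cause was not tested. With array weights Dnajb9 was also called higher. Ern2 had adjusted p of 0.15 with a pseudocount of 0.1, 0.13 with TPM and 0.14 with the replicate block (limma). Over the alternatives, 134 of 160 values for single members had the same direction and stayed on their side of the threshold. In the same direction 9 newly passed it and 13 lost it, and 4 reversed. Of these 4, Atf4 with TPM also newly passed it (adjusted p = 0.0038 from limma). Of 63 values of the ratios, 61 kept their direction and side, 1 lost its unadjusted p and 1 reversed. Of 320 list counts, 132 moved by more than 1.5 times. Rounding to whole FPKM and unknown depth limit what can be seen for Ern1, Atf6, Ddit3 and other low genes, and 3 controls limit every test.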
